A study of Danio rerio with 4 samples.

Results

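The contacts described here join DNA ends within a stretch of 19 kb on zebrafish (Danio rerio) chromosome 3, chr3:55943000-55962000 of the danRer7 build, inside the major alpha/beta-globin gene domain. Contacts were read out by 5C, a form of chromosome conformation capture in which each read reports 1 forward and 1 reverse primer whose DNA ends were ligated together in fixed chromatin. Members were all primer pairs with both primer midpoints inside the stretch, which gave 17 forward and 16 reverse primers and 272 pairs, of 6699 pairs in the whole region. The rule uses position alone and no count. Adult blood cells (2 libraries) were compared with blood cells of larvae at 18 days post fertilisation (2 libraries). The labels name no strain or genotype, fish of both stages were killed with tricaine, and cells of both stages were fixed with 2% formaldehyde for 10 min. The labels mention no sort of the blood cells, and with no expression data the cell type was not checked against marker genes. The labels call the libraries of a stage biological replicates without saying how many fish each holds or whether the pools were separate. The p-values therefore reflect no more than the spread between these libraries, which may be technical. The fits share this spread across all pairs or sums fitted together. The standard error and p of 1 pair thus do not measure its own spread alone.

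Globin genes encode the oxygen-carrying protein of red blood cells. In this major domain of zebrafish, alpha- and beta-globin genes lie together, with a set used by the embryo and larva and a set used by the adult fish. Zebrafish red cells keep their nucleus, so that circulating cells still hold chromatin. Globin genes are switched on by distant enhancers that come close to the promoters in red cells, and conformation capture reads such proximity as ligation frequency. In a RefSeq gene table of another zebrafish assembly (GRCz12tu) the domain holds the adult genes hbaa1 and hbba1 beside the embryo-larval genes hbbe1.1 and hbae1.1, and nprl3, the housekeeping gene whose introns hold the main alpha-globin enhancer, lies next to the globin genes. No gene, exon or enhancer is assigned to a primer, since no danRer7 annotation was used, and contacts are named by primer (F or R with its number in the files) and by distance between primer midpoints. Primer sequences and the genome sequence of this build were not used here.

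Adult replicates 1 and 2 held 65450 and 38494 counts in all, and larvae replicates 1 and 2 held 20801 and 6539 counts. The upper limit behind a count of 0, taken as 3 counts, equals 45.8 and 77.9 CPM (counts divided by the total of the library, on the usual per-million scale) in adults, and 144 and 459 CPM in larvae. 3 pairs that each join 1 end of the stretch's low edge (F165 or R164) to a place outside it took 15.2% and 18.5% of adult counts and 24.8% and 34.5% of larvae counts. They are not members, but they lower the CPM of every other pair, and more so in larvae. The share of the stretch and some fitted results are also given without them, while all CPM values include them. Over the 272 member pairs libraries of a stage differed by more than counting error, with a chi-square over degrees of freedom of 2.87 for the adult pair and 3.38 for the larvae pair, so each was counted as 1 sample. The reads carry no molecular identifiers, so copies made by PCR cannot be told from separate molecules, and the limits and intervals given here cover counting error only.

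The first question was whether contacts within the stretch as a whole differ between the stages. The stretch took a larger part of all counts in adults. Its 272 pairs held 19919 and 11251 counts in the adult libraries, against 3033 and 922 counts in the larvae libraries. That was 30.4% (95% exact binomial interval 30.1 to 30.8%) and 29.2% (28.8 to 29.7%) of the adult libraries, and 14.6% (14.1 to 15.1%) and 14.1% (13.3 to 14.97%) of the larvae libraries. The stages did not overlap. The adult share averaged 29.8% ± 0.85 and the larvae share 14.3% ± 0.34 (SD over 2 libraries), a ratio of 2.08. Without the 3 dominant pairs the shares were 35.9% ± 0.027 in adults and 20.5% ± 1.51 in larvae. These are shares of a fixed total, so a larger share here goes with a smaller one elsewhere in the region. Fitted log2 changes also use scaling factors (TMM), 0.93 and 0.94 in adults and 1.03 and 1.12 in larvae. This shifts them toward adults relative to ratios of shares or CPM. With library totals alone the fitted change of the sum within the stretch was 1.06, in place of the 1.25 given next. With the region divided into the low flank, the stretch, the middle block (55962000 to 55992000) and the high flank, the sum within the stretch was higher in adults by 1.25 ± 0.21 on the log2 scale (SE, adjusted p = 6.62e-05, edgeR quasi-likelihood over 10 block pairings with Benjamini-Hochberg adjustment, of which 60.0% passed in either direction, 30.0% as higher in adults and 30.0% as higher in larvae). Without adult replicate 2 the change was 1.46 and did not pass (adjusted p = 0.0554, edgeR). Contacts of the stretch with the low flank were also higher in adults, at 15.1% ± 0.86 in adults and 8.89% ± 2.83 in larvae (log2 change 0.93 ± 0.18, adjusted p = 0.000202, edgeR), though not without adult replicate 2 (adjusted p = 0.189). Contacts within the neighbouring middle block went the other way, at 5.19% ± 0.20 of counts in adults and 8.49% ± 0.030 in larvae (log2 change -0.51 ± 0.17, adjusted p = 0.0151, edgeR). That call was lost without the 3 dominant pairs (-0.16, adjusted p = 0.517), without adult replicate 1 (0.233) and without adult replicate 2 (0.792, edgeR). The difference between the changes of these parts was not tested.

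Mean CPM per pair, with pairs at 0 included, was higher in adults at every distance inside the stretch. Pairs less than 1 kb apart averaged 2405 and 2459 CPM in the adult libraries and 1271 and 948 CPM in the larvae libraries (30 pairs). At 2 to 5 kb the means were 1146 and 1023 CPM in adults and 572 and 461 CPM in larvae (68 pairs). At 10 to 20 kb they were 537 and 472 CPM in adults and 162 and 153 CPM in larvae (66 pairs). From the shortest class to the longest, the ratios of adult over larvae means were 2.19, 1.61, 2.10, 1.93 and 3.21, with no steady trend. By these means both adult libraries lay above both larvae libraries in each of the 5 distance classes. The order depended on counting the pairs at 0. Over pairs above 0 alone, the medians stayed apart under 1 kb, at 1719 and 1792 CPM in adults and 1322 and 765 CPM in larvae. They overlapped between the stages at 1 to 2 kb, 2 to 5 kb and 10 to 20 kb, and at 5 to 10 kb they were 581 and 753 CPM in adults and 697 and 765 CPM in larvae. Pairs elsewhere in the region did not show this order. Less than 1 kb apart they averaged 420 and 385 CPM in adults and 989 and 750 CPM in larvae (96 pairs), and at 10 to 20 kb 115 and 112 CPM in adults and 115 and 86.5 CPM in larvae (810 pairs). In adults the stretch thus stood at 2432 CPM under 1 kb beside 402 CPM for other pairs at that distance, and in larvae at 1109 CPM beside 870 CPM. The 30 pairs under 1 kb hold F199-R198, at 22842 and 25848 CPM in adults and 0 in both larvae libraries. Their means were not taken without it, so the size of the gap in this class leans on 1 pair. A single value with 2 libraries per stage cannot go below p = 0.333 in an exact permutation test, so these means carry no test.

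**Figure D1:**
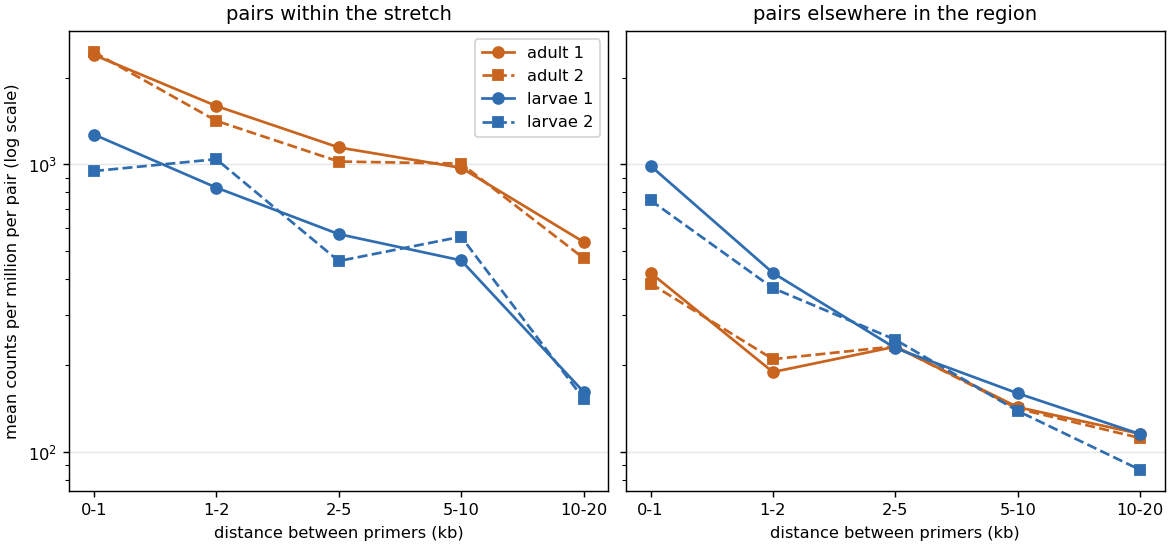
Mean CPM per primer pair, pairs at 0 included (log axis), against the distance between primers in kb, for pairs within the stretch (left) and pairs elsewhere in the region (right); each line is 1 library, adult in orange and larvae in blue. Within the stretch both adult libraries lie above both larvae libraries in all 5 classes, from 2405 and 2459 against 1271 and 948 CPM under 1 kb to 537 and 472 against 162 and 153 CPM at 10 to 20 kb, while elsewhere the larvae libraries are higher under 2 kb. The class under 1 kb holds F199-R198, at 22842 and 25848 CPM in adults and 0 in both larvae libraries.

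Fewer member pairs had any count in larvae. Of the 272 pairs, 215 and 214 had at least 1 count in the adult libraries, against 144 and 138 in the larvae libraries. That was 79.0% and 78.7% of the members in adults and 52.9% and 50.7% in larvae, while over all 6699 pairs it was 29.9% and 28.3% in adults and 15.6% and 13.1% in larvae, lower in larvae in both sets. By stage, 132 pairs had counts in both stages, 88 in adults alone, 18 in larvae alone and 34 in neither. The mean CPM was higher in adults for 178 pairs and higher in larvae for 60 pairs. Since the larvae libraries are shallower, a pair at 0 there is only known to lie under the limit above. The order of pairs was alike between libraries of a stage, with a Spearman's rho of 0.98 in adults and 0.90 in larvae, and of 0.37 to 0.43 across the stages. These are descriptions over 272 pairs that share primers and library depth. The 10 strongest member pairs were the same 10 in both adult libraries, 5 were shared by the larvae libraries, and 0 to 2 were shared by an adult and a larvae library.

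**Figure D2:**
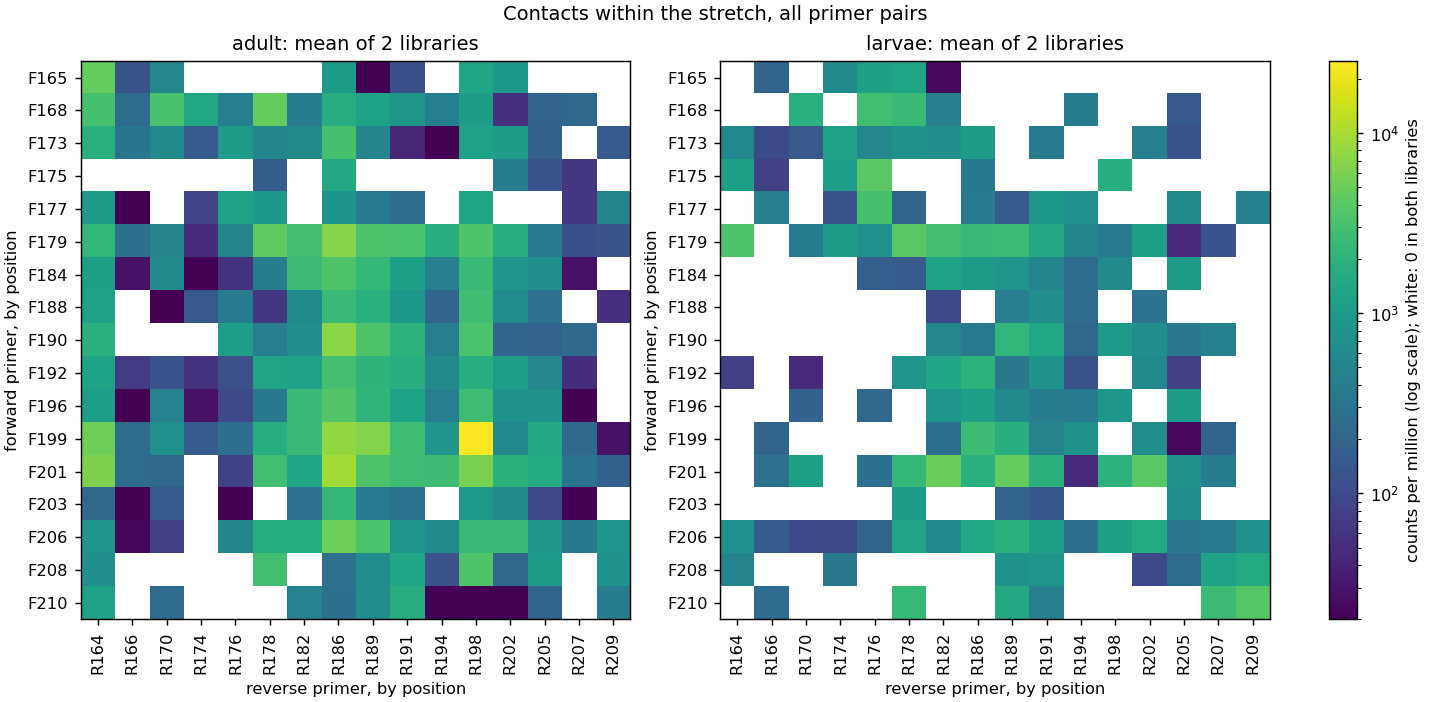
Mean CPM of each of the 272 pairs of a forward primer (rows) and a reverse primer (columns), both in order of position, in adults (left) and larvae (right), on a log colour scale with white for pairs at 0 in both libraries of the stage. The adult map has bright columns at R186 and R198 and its highest value at F199-R198, while in the larvae map that pair is white and the column of R164 is mostly white.

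Pair by pair, more contacts passed as higher in adults than as higher in larvae. Of the whole region's pairs, 679 had enough counts to be tested. These included 151 of the 272 members, and the other 121 members were not tested. Among the 151, 80 passed as higher in adults and 21 as higher in larvae, and 50 did not pass. Over all tested pairs 46.1% passed as higher in adults and 24.0% as higher in larvae (edgeR quasi-likelihood, Benjamini-Hochberg over 679 pairs, threshold 0.05). The members' 53.0% and 13.9% lie on either side of these, and their total of 66.9% is near the 70.1% of all tested pairs. The median log2 change, adult minus larvae, was 1.47 over the tested members and 1.08 over all tested pairs. Pairs at 0 in a stage have no fitted fold, but with each such pair at its bound both medians were the same. Over pairs with counts in both stages it was 1.06 for the members (101 pairs) and -0.10 for all (359 pairs). A fit of such pairs alone called 36 of the 101 members higher in adults, beside 17.3% of all 359, and 7 higher in larvae, beside 20.3%. In 123 of the tested members the libraries of the 2 stages did not overlap, which is 81.5% of them beside 82.8% of all tested pairs. A pair could enter the test through the stage in which it was high, so these counts describe the tested pairs only. Leaving out adult replicate 1, adult replicate 2 or larvae replicate 1 gave fewer calls in both directions, though 155, 152 and 172 members were tested (edgeR). Those fits hold 1 library of a stage. With the stretch's own total as library size, which asks how contacts shift within the stretch, 49 of the 151 tested members were higher in adults and 33 were higher in larvae. Shares over all tested pairs were not taken for these fits.

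By the mean CPM over all 4 libraries, which weighs both stages, most of the strongest pairs joined R186 (55951031 to 55951060), R189 (55952347 to 55952376) and R198 (55956018 to 55956047) to F179 (55950043 to 55950072), F190 (55952827 to 55952856), F199 (55956682 to 55956711) and F201 (55957376 to 55957405), and F179-R178 and F168-R178 joined R178. In larvae alone the strongest were F201-R182 with 5051 CPM on average, F201-R189 with 4680 CPM, F179-R178 with 4081 CPM and F175-R176 with 4069 CPM. Of these, F201-R189 and F179-R178 are also among the 10 strongest over all 4 libraries, while F201-R182 and F175-R176 are not. F201-R186, over 6.35 kb, had 578 and 376 counts in adults and 41 and 11 counts in larvae, and was higher in adults by 2.50 ± 0.44 on the log2 scale (SE, n = 2 per stage, adjusted p = 1.14e-07, edgeR). F199-R186, over 5.65 kb, had 470 and 330 counts in adults and 11 and 31 in larvae (2.02 ± 0.45, adjusted p = 2.63e-05, edgeR). In CPM its larvae libraries were far apart, at 529 and 4741. Its SE was still near that of F201-R186, whose larvae libraries were at 1971 and 1682 CPM. F199-R189, over 4.33 kb, had 513 and 209 counts in adults and 34 and 13 in larvae (2.09 ± 0.45, adjusted p = 1.66e-05, edgeR). In all 3 pairs both adult libraries lay above both larvae libraries in CPM. F190-R186, over 1.80 kb, had 540 and 241 counts in adults but only 3 and 4 in larvae, at or near the limit of a count of 0, and changed by 4.86 ± 0.58 (adjusted p = 1.52e-14, edgeR). F206-R186, from F206 at 55958770 to 55958799 over 7.74 kb, had 298 and 224 counts in adults and 10 and 15 in larvae (2.37 ± 0.49, adjusted p = 8.45e-06, edgeR). F179-R186 (0.988 kb, log2 change 1.72 ± 0.44) and F201-R198 (1.36 kb, 1.72 ± 0.44) were also higher in adults. Some of these calls depend on 1 library. F199-R186 did not pass without adult replicate 2 (adjusted p = 0.0601) or larvae replicate 1 (0.146, at a log2 change of 0.90), nor did F206-R186 (0.0600 and 0.0650). F179-R186 did not pass without adult replicate 1, adult replicate 2 or larvae replicate 1 (0.0741, 0.0734 and 0.0977), and F199-R189 and F201-R198 did not pass without adult replicate 1 (0.0606 and 0.0930, all edgeR).

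Not all strong contacts passed as different, which with 2 libraries per stage does not show that they were equal. F179-R178, over 1.58 kb, had 269 and 167 counts in adults and 68 and 32 in larvae, which is 4224 and 4081 CPM on average (log2 change 0.28 ± 0.42, adjusted p = 0.562, edgeR), and the libraries of the stages overlapped. F201-R189, over 5.03 kb, had 234 and 122 counts in adults and 77 and 37 in larvae (-0.24 ± 0.42, adjusted p = 0.626, edgeR), though its neighbour F199-R189 was higher in adults. In CPM both larvae libraries of F201-R189 (3702 and 5658) lay above both adult libraries (3575 and 3169). F179-R164, which reaches 6.86 kb to R164 at the low edge (55943182 to 55943211), had 128 and 98 counts in adults and 72 and 23 in larvae (-0.45 ± 0.45, adjusted p = 0.378, edgeR). Its larvae libraries, at 3461 and 3517 CPM, also lay above its adult libraries, at 1956 and 2546 CPM. F201-R178, over 8.92 kb, had 207 and 103 counts in adults and 58 and 12 in larvae (0.47 ± 0.46, adjusted p = 0.361, edgeR). F168-R178 (3.20 kb, log2 change 1.04 ± 0.44, adjusted p = 0.0263) and F206-R189 (6.42 kb, 1.11 ± 0.48, adjusted p = 0.0313, edgeR) passed narrowly as higher in adults and did not pass with DESeq2 (0.142 and 0.172). Neither passed without adult replicate 1, adult replicate 2 or larvae replicate 1, and F168-R178 also not without larvae replicate 2 (edgeR, adjusted p = 0.0849 to 0.282 for F168-R178 and 0.272 to 0.409 for F206-R189).

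Some adult contacts had no count at all in larvae. Of the 80 members higher in adults, 38 were at 0 in both larvae libraries, a smaller part than the 241 of 313 over the whole region. These 38 entered the test through their adult counts alone and are named for having passed, so an adjusted p given for them is a description. The lower bounds of the 38 ran from 3.33-fold to 218-fold. A bound sets the adult counts over the summed adult total against 3 counts over the summed larvae total, 110 CPM. The primers of the pairs named here had counts with other partners in larvae, and the zeros could not be checked against the reads, so the bounds hold only as far as the deposited zeros do. The strongest was F199-R198, 0.664 kb apart, with 1495 and 995 counts in adults and 0 and 0 in larvae, at least 218-fold higher in adults (adjusted p = 9.58e-36, edgeR). It alone held 7.51% and 8.84% of the stretch's counts in the adult libraries. F201-R164 (14.2 kb) had 460 and 202 counts in adults, F199-R164 (13.5 kb) had 371 and 185, F165-R164 (0.156 kb) had 292 and 184 and F208-R198 (4.21 kb) had 186 and 159. None of these 4 had a count in larvae, which puts them at least 58.0-fold, 48.7-fold, 41.7-fold and 30.2-fold higher in adults. F201-R164 and F199-R164 link the low edge of the stretch to primers far along it, and in larvae the same R164 did have 72 and 23 counts with F179. Among members with counts in both stages the 5 largest fitted changes were those of F199-R205 (5.39), F201-R194 (5.29), F192-R164 (5.04), F190-R186 and F192-R205 (3.86), which had 0 to 4 counts in each larvae library. Apart from F190-R186, these pairs had 0 to 2 counts per larvae library, under the limit of a count of 0. Their fitted changes are therefore not measured folds, and they too entered the test through their adult counts. F192-R205 did not pass without adult replicate 1, adult replicate 2 or larvae replicate 1 (adjusted p = 0.153, 0.335 and 0.310), and F192-R164 not without larvae replicate 1 (0.0590, edgeR).

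The larvae-higher contacts were fewer. They made up 4 of 5 tested member pairs of F175 (55946597 to 55946626), 4 of 8 of R176 (55946734 to 55946763) and 4 of 9 of F177. F210, at the high edge (55961917 to 55961946), had 3 of 6, R174 had 3 of 4 and R178 had 3 of 13. Over all tested members the share was 13.9%, and over all tested pairs 24.0%. Adult-higher pairs numbered 1 each for F175, R176 and R174, 2 for F210, 3 for F177 and 5 for R178. The summed contacts of R178 inside the stretch were higher in adults (log2 change 0.58). Of the 21 members higher in larvae, 12 were at 0 in both adult libraries (79 of 163 over the whole region), with lower bounds from 22.8-fold to 165-fold against 3 counts over the summed adult total, 28.9 CPM. The same limits on the zeros and on the adjusted p hold for these, which entered the test through their larvae counts alone. F175-R176, 0.137 kb apart, had 0 and 0 counts in adults and 112 and 18 in larvae, at least 165-fold higher in larvae (adjusted p = 7.07e-21, edgeR). It was the strongest member pair of larvae replicate 1. F210-R207 (2.84 kb) had 71 and 12 counts in larvae, F210-R178 (13.5 kb) 74 and 8, F175-R198 (9.42 kb) 50 and 7 and F165-R178 (5.12 kb) 31 and 8. These 4 were at 0 in both adult libraries and were at least 105-fold, 104-fold, 72.2-fold and 49.4-fold higher in larvae. Most of their counts came from larvae replicate 1, the deeper library. In CPM the larvae libraries were uneven for F210-R178, at 3558 and 1223 CPM, and closer for F165-R178, at 1490 and 1223 CPM. F210-R209, 0.645 kb apart, had 20 and 19 counts in adults and 106 and 17 in larvae (log2 change -3.16 ± 0.53, adjusted p = 2.29e-08, edgeR). F179-R174 had 3 and 2 counts in adults and 29 and 4 in larvae (-4.24 ± 0.85, adjusted p = 3.68e-06, edgeR), and did not pass without adult replicate 2 (0.0610). F173-R174 (-2.84), F168-R176 (-2.38) and F201-R170 (-2.12) were also higher in larvae, but none of these 3 passed without either adult library. F168-R176 changed by -0.71 and did not pass without larvae replicate 2 (adjusted p = 0.404), which held 33 of its counts beside 16 in larvae replicate 1.

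**Figure D3:**
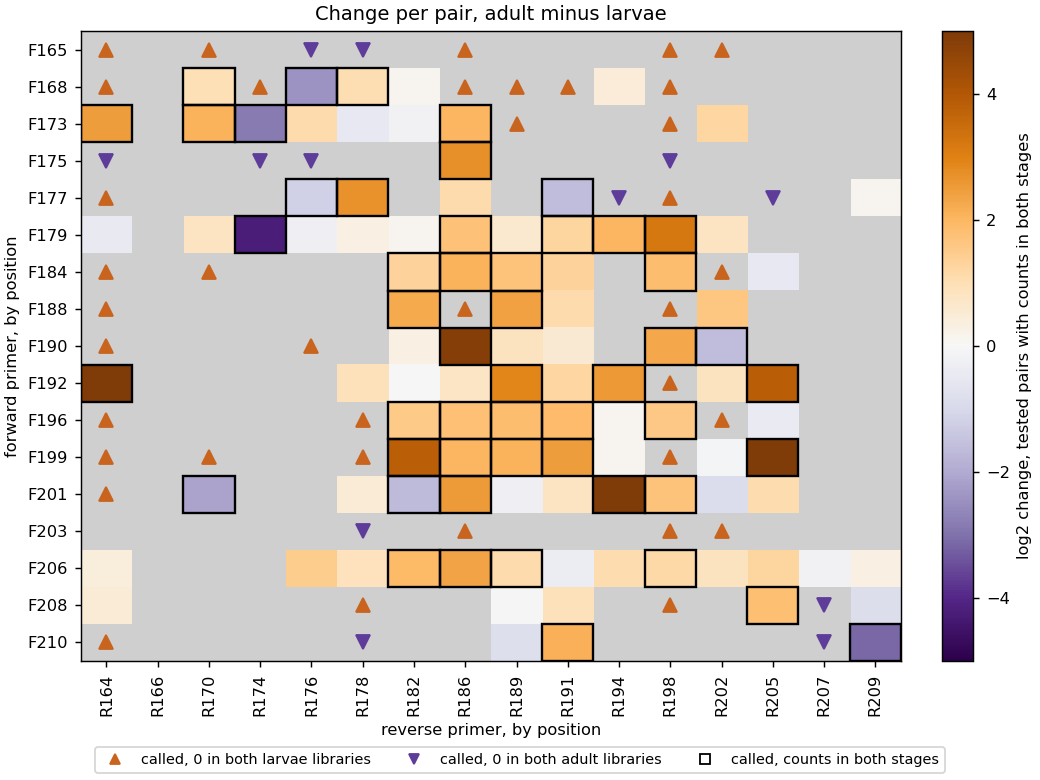
Log2 change per pair, adult minus larvae, for tested pairs with counts in both stages (colour, orange for higher in adults and purple for higher in larvae), with forward primers as rows and reverse primers as columns in order of position. Boxes mark those that passed, triangles mark pairs that passed and were at 0 in both libraries of a stage (up: 0 in larvae, 38 pairs; down: 0 in adults, 12 pairs), and grey marks all other pairs; adult-higher pairs make up 15 of 16 tested pairs in the column of R198, 13 of 15 in that of R186 and 12 of 16 in that of R164.

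To see where in the stretch the contacts differed, it was divided into 4 parts of 4.75 kb, Q1 (from 55943000), Q2 (from 55947750), Q3 (from 55952500) and Q4 (from 55957250 to 55962000), and counts were summed for each of the 10 pairings. The 3 largest changes all involved Q3. Within Q3 mean CPM per pair was 3434 and 3600 in adults and 649 and 421 in larvae, a log2 change of 2.85 ± 0.26 (adjusted p = 2.65e-24, edgeR over 304 bin pairings of the whole region). F199-R198 held 55.4% and 59.8% of the adult counts there, and without it the values were 1670 and 1578 CPM per pair in adults and 708 and 459 in larvae. Q1 with Q3 had 608 and 511 CPM per pair in adults and 111 and 90.8 in larvae (2.62 ± 0.30, adjusted p = 9.21e-16, edgeR). F199-R164 held 29.1% and 29.4% of the adult counts there. Without it the values were 445 and 373 CPM per pair in adults and 115 and 93.7 in larvae. R164 also gave this pairing F190-R164 (124 and 71 adult counts), F196-R164 (89 and 32) and F192-R164 (82 and 48). The pairing was not summed without R164. Q2 with Q3 had 2420 and 2204 CPM per pair in adults and 711 and 808 in larvae (1.81 ± 0.23, adjusted p = 2.56e-13, edgeR). In these 3 pairings the stages were far apart relative to the spread within a stage. Q1 with Q4, the most distant pairing, had 358 and 324 CPM per pair in adults and 122 and 112 in larvae (1.72 ± 0.29, adjusted p = 6.69e-08, edgeR). F201-R164 held 47.9% and 39.5% of the adult counts of this pairing. Without it the values were closer, at 191 and 201 CPM per pair in adults and 125 and 115 in larvae.

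The other pairings changed less. Q3 with Q4 (log2 change 1.45 ± 0.24), Q2 with Q2 (1.22 ± 0.24), Q2 with Q4 (0.78 ± 0.22, adjusted p = 0.00142) and Q1 with Q2 (0.78 ± 0.24, adjusted p = 0.00330, edgeR) were higher in adults. The last 2 did not pass without adult replicate 1 (adjusted p = 0.137 and 0.0945) or adult replicate 2 (0.0782 and 0.101), nor with DESeq2 (0.196 and 0.191). Within Q1, values were 886 and 879 CPM per pair in adults and 844 and 719 in larvae (0.36 ± 0.25, adjusted p = 0.220, edgeR). Within Q4, they were 600 and 591 in adults and 1147 and 688 in larvae (-0.47 ± 0.25, adjusted p = 0.106, edgeR), with the 2 larvae libraries far apart. In all, 8 of the 10 pairings were higher in adults, beside 33.2% of all bin pairings (51.6% passed in either direction). In edgeR 0 were higher in larvae, also at an unadjusted p under 0.05, beside 18.4% of all bin pairings. DESeq2 called 6 higher in adults and 0 higher in larvae. Within Q4 passed as higher in larvae without larvae replicate 2 (-0.82, adjusted p = 1.34e-05, edgeR). Relative to the stretch's own total, Q3 with Q3 and Q1 with Q3 passed as higher in adults, and Q1 with Q1 (-0.89, adjusted p = 0.00281) and Q4 with Q4 (-1.70, adjusted p = 1.32e-08, edgeR) passed as higher in larvae.

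**Figure D4:**
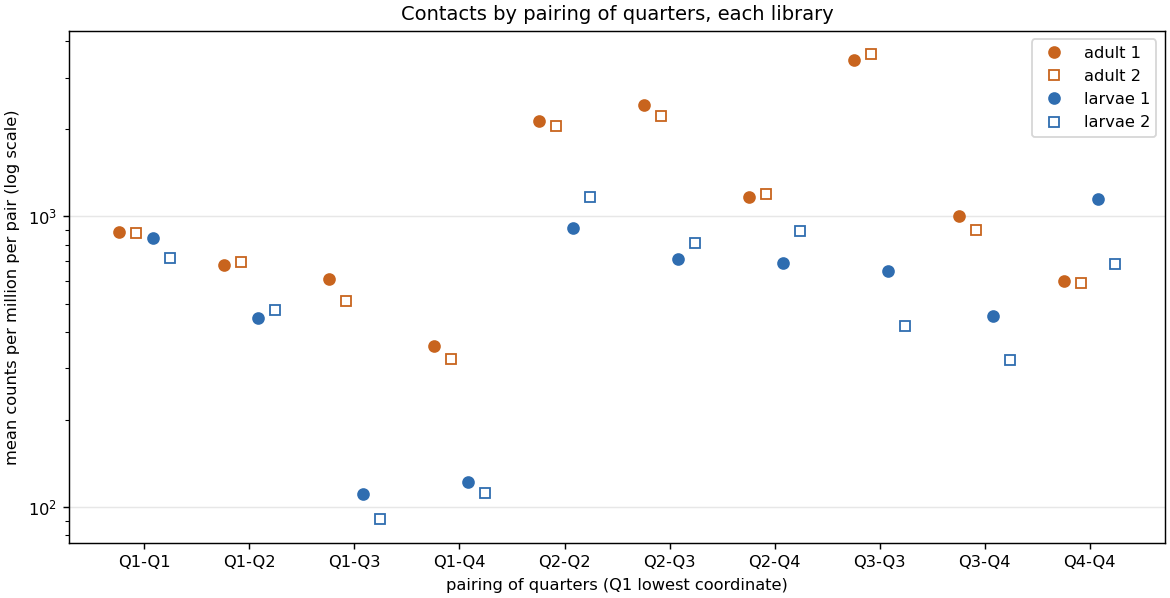
Mean CPM per pair (log axis) in each library for the 10 pairings of the 4 parts of the stretch, adult in orange and larvae in blue. The stages are farthest apart for Q3-Q3 (3434 and 3600 against 649 and 421) and Q1-Q3 (608 and 511 against 111 and 90.8), and only within Q4 are both larvae values above both adult values.

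The last comparison took each primer as a viewpoint and summed its counts over partners inside the stretch. Of the 33 primers, 22 passed as higher in adults and 4 as higher in larvae, and 7 did not pass; over all primers tested for contact with the stretch, 63.2% passed, 51.9% as higher in adults and 11.3% as higher in larvae (edgeR over 133 primers). Each read enters the sum of 1 forward and 1 reverse primer, so these sums are not independent of each other. All 7 primers of Q3 were higher in adults, as were 6 of 8 in Q2, 5 of 9 in Q1 and 4 of 9 in Q4. Without adult replicate 1 or adult replicate 2, in fits that hold 1 adult library, fewer member primers passed in both directions. DESeq2 called 14 higher in adults and 2 higher in larvae. Shares over all primers were not taken for these fits, so the lower counts are not a result about the members.

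The 5 adult-higher primers with the smallest adjusted p were F199, R164, F188, R198 and R186. F199 took 55523 and 55567 CPM in adults and 5096 and 9023 CPM in larvae (log2 change 3.24 ± 0.29, adjusted p = 0.000741, edgeR). R198 took 59817 and 57489 CPM in adults and 9855 and 5505 CPM in larvae (3.06 ± 0.33, adjusted p = 0.00121, edgeR). Without their joint pair F199-R198, F199 still had 32681 and 29719 CPM in adults and 5096 and 9023 in larvae, and R198 36975 and 31641 in adults and 9855 and 5505 in larvae. R186 took 59801 and 60529 CPM in adults and 10480 and 18657 in larvae (2.29 ± 0.28, adjusted p = 0.00180, edgeR). R164 took 34469 and 32810 CPM in adults and 6586 and 6423 in larvae (2.56 ± 0.21, adjusted p = 0.000741, edgeR). Most counts of R164 lay outside the stretch. Partners inside it gave 33.3% and 30.3% of them in adults and 6.99% and 5.17% in larvae. F188 (55951854 to 55951883) took 12406 and 10911 CPM in adults and 1298 and 2141 in larvae (3.05 ± 0.32, adjusted p = 0.00119, edgeR). In all 5 primers the stages were far apart relative to the spread within a stage. None of them lost its call in the alternative runs in which named primers were followed, which leave out the runs restricted by distance. As a description, since the sums that chose these primers hold the same pairs, 15 of 16 tested pairs were higher in adults for R198, 13 of 15 for R186, 12 of 16 for R164, 9 of 11 for F199 and 5 of 7 for F188, beside 53.0% of all tested members.

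The 4 larvae-higher primers were F175, R176, R207 (55959074 to 55959103) and F210. R176 took 5302 and 6183 CPM in adults and 12355 and 14528 in larvae (log2 change -1.02 ± 0.23, adjusted p = 0.00921, edgeR). F175 took 2368 and 2104 CPM in adults and 11442 and 5505 in larvae (-1.79 ± 0.42, adjusted p = 0.0105, edgeR). R207 changed by -1.55 ± 0.42 and F210 by -0.93 ± 0.33. These calls were less stable than those of the adult-higher primers. None of the 4 passed without either adult library, R176 and F210 did not pass with DESeq2 (adjusted p = 0.122 and 0.204) or without the dominant pairs (0.0709 and 0.0827), and R207 and F210 did not pass without larvae replicate 1 (0.0537 and 0.107, edgeR). F210 also did not pass with the replicate number as a block (0.0538, edgeR).

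**Figure D5:**
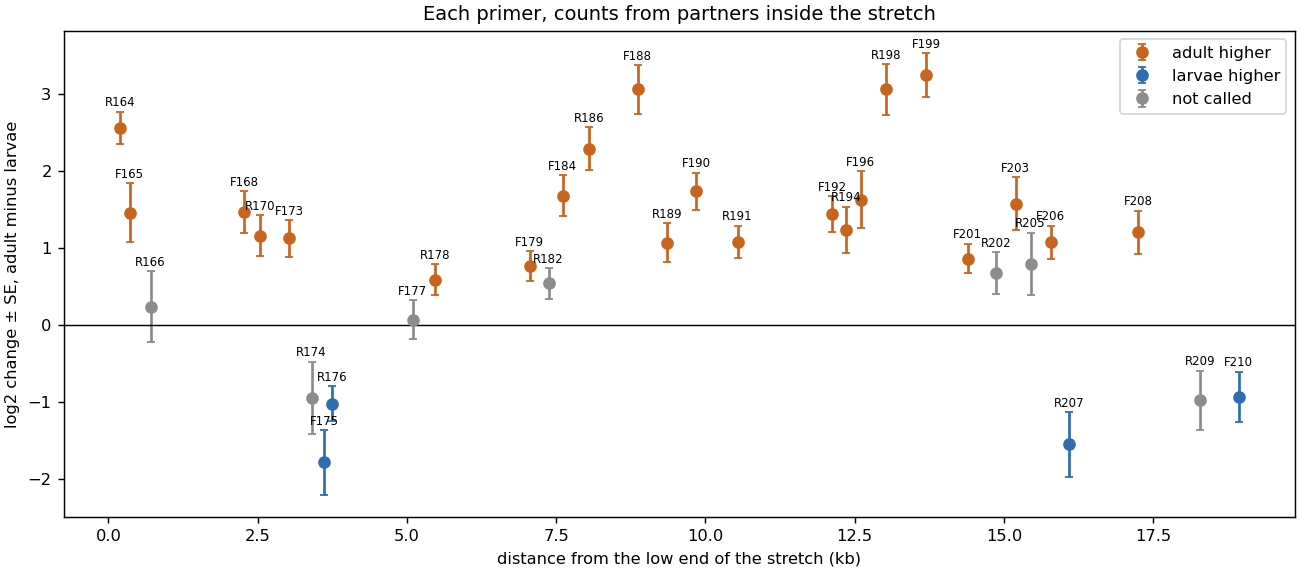
Log2 change, adult minus larvae, of each of the 33 primers for counts from partners inside the stretch, against distance from the low end of the stretch in kb; bars are standard errors, and colour gives the call. F199, R198 and F188 lie highest (3.24, 3.06 and 3.05), and the primers below 0 sit in a group that holds F175 and R176 and toward the high edge, where R207 and F210 lie.

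Neighbouring primers could differ. R182 (55950359 to 55950388) and R186 lie under 1 kb apart, and R182 took 17280 and 18315 CPM in adults and 13557 and 14528 in larvae (log2 change 0.54 ± 0.20, adjusted p = 0.0506, edgeR), while R186 changed by 2.29. With F201 the pair of R182 had 68 and 62 counts in adults and 67 and 45 in larvae and was higher in larvae (-1.68 ± 0.46, adjusted p = 0.000505, edgeR), whereas that of R186 was higher in adults. The call of F201-R182 was lost without adult replicate 1 (0.274) or adult replicate 2 (0.141). F199 and F201, also under 1 kb apart, had a like contrast: F201 took 40779 and 37279 CPM in adults and 23845 and 25539 in larvae (0.86 ± 0.19, adjusted p = 0.00934, edgeR), and was the forward primer with the largest part of the stretch's counts in larvae (16.4% and 18.1%). The difference between the changes of neighbouring primers was not tested.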

How the data were processed

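The authors deposited 1 matrix per library of whole-number read counts per forward and reverse primer pair, not normalized. The submitters' processing notes list bcl2fastq 1.8.4, Bowtie2 2.2.2 and the build danRer7. The rule for assigning reads to pairs is not stated there. Per the labels' protocols, 28 PCR cycles preceded sequencing. Samples were grouped by title. Members and tests were chosen with earlier results of these data known.

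The whole region's pairs entered a quasi-likelihood fit in edgeR 4.0.16 (R 4.3.3), stage as the only term, TMM factors and filterByExpr (minimum count 10, minimum total 15), with Benjamini-Hochberg adjustment and a threshold of 0.05. Bin, primer and block sums used the same factors. Standard errors derive from the quasi-likelihood F. Fits were tested on simulated counts with changes of set size, drawn evenly in both directions. That test does not cover a lopsided change or strong pairs at 0 in a whole stage. Alternatives were library totals, the stretch's total, DESeq2 1.42.0, no filter, thinning, leaving out the 3 dominant pairs, close pairs or each library, and the replicate number as a block. Named were the 10 strongest member pairs, the 10 strongest at least 5 kb apart, the 5 largest changes per direction with counts in both stages, the 5 strongest per direction at 0 in a stage, the 5 primers with the smallest adjusted p per direction, and all bin pairings. R182 with its neighbours was chosen after its values were seen. Deviations of same-numbered libraries from their stage correlated at 0.0059 over 679 tested pairs. Counting error in the shallow larvae libraries pulls such a value toward 0, so it cannot decide whether the numbers pair the libraries. The fits did not pair them, apart from the block alternative.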

Additional observations from a re-analysis of the deposited data

How the results depend on the processing

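Beyond the values given with the results, the count of adult-higher member pairs was 121 with no filter, 25 with libraries thinned to the smallest (53 members tested), 39 with only pairs at least 5 kb apart, 36 with only pairs with counts in both stages (background 17.3%) and 42 to 91 with 1 library left out. The count of larvae-higher member pairs was 5, 8 and 7 in the thinned, 5 kb and both-stage settings, and 5 to 21 with 1 library left out. The members tested numbered 238 with no filter, 53 after thinning, 68 with the 5 kb limit and 101 in the both-stage setting. They numbered 152 to 185 with 1 library left out, beside 151 in the main fit. These counts of calls therefore do not by themselves show a shift in the rate of calls. Apart from the both-stage setting, shares over all tested pairs, bin pairings or primers were not taken here. With the stretch's total as library size, 49 and 33 member pairs, 2 and 2 bin pairings and 5 and 9 primers were higher in adults and in larvae. Larvae-higher bin pairings numbered 1 with library totals and 1 after thinning, and 0 to 1 with 1 library left out. Adult-higher primers numbered 10 to 24 with 1 library left out and 14 with DESeq2. Larvae-higher primers numbered 2 with DESeq2, 2 with no filter, 2 without the dominant pairs, 1 with partners at least 1 kb away and 0 to 6 with 1 library left out. The sum within the stretch changed by 0.97 to 1.67 over its alternatives, 1.16 to 1.46 with 1 library left out. The share of counts in member pairs was 25.4% in adults and 12.5% in larvae over pairs at least 1 kb apart, and 35.9% and 20.5% without the dominant pairs. With the replicate block, 76 and 18 member pairs were called, and of the named pairs 1 lost its call (F206-R189, adjusted p = 0.0568).

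Changes turned direction as follows. With the stretch's total, F179-R178 (-0.98), F168-R178 (-0.19), F201-R178 (-0.76), F206-R189 (-0.16), Q1 with Q1 (-0.89), Q1 with Q2 (-0.47), Q2 with Q2 (-0.037) and Q2 with Q4 (-0.47) turned to higher in larvae, which follows from scaling to a total that itself differs. F201-R189 turned to 0.17 with no filter, 0.079 without the dominant pairs, and ranged from -0.57 to 0.024 (without adult replicate 2) with 1 library left out. F179-R178 ranged from -0.040 (without larvae replicate 1) to 0.50. Among other blocks, low flank with high flank turned to 0.12 with no filter and 0.074 without the dominant pairs, stretch with high flank to 0.072 and 0.043, and stretch with middle block, which holds the dominant pairs, to 0.77 without them. Low flank with low flank turned to -0.057 with library totals and -0.076 after thinning, and ranged from -0.056 (without larvae replicate 2) to 0.34 with 1 library left out. Of the 10 mean CPM values by distance, 7 moved by more than the spread between libraries with the median over pairs above 0. Depth limits the larvae values most: 3 counts are 459 CPM in larvae replicate 2.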

Other observations

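How much of a primer's contact stayed inside the stretch also differed between stages for some primers. Of all counts of F188 in the region, 72.8% and 72.7% came from partners inside the stretch in adults, and 9.75% and 20.6% in larvae. For F199 these parts were 82.6% and 83.8% in adults and 33.1% and 52.2% in larvae. For F201, in contrast, they were 81.3% and 82.2% in adults and 89.4% and 93.3% in larvae, and for F175 44.4% and 41.5% in adults and 80.4% and 76.6% in larvae. R198 kept 80.1% and 81.2% inside in adults and 77.4% and 83.7% in larvae, although its log2 change for counts inside the stretch (3.06) was near that of F199 (3.24). These parts were chosen after their values were seen and carry no test.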
